A study of Mus musculus with 2 samples.

Results

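T cells without Cd4 or Cd8 transcripts were cells whose UMIs (unique molecular identifiers, 1 per captured transcript) included Cd3 but no UMI of Cd4, Cd8a or Cd8b1. A kept cell had at least 1000 UMIs, at least 500 genes and at most 10% of UMIs from mitochondrial genes. A gated T cell had at least 2 UMIs of Cd3d, Cd3e and Cd3g together, at most 1 UMI of Trdc and none of Ncr1. Of 16770 kept cells, 15330 were gated T cells and 1616 of these had neither coreceptor transcript; they are called double-negative cells here. The mSTAR1302 library held 645 of them and the vehicle library 971. The members were chosen by measured values, so the counts of Cd3, Cd4, Cd8a, Cd8b1, Trdc and Ncr1 in them are descriptions.

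The cells came from EMT6 tumours, a mouse mammary carcinoma line grown under the skin of BALB/c mice aged 4 to 6 weeks. Mice were randomised at a tumour volume of 80 to 150 mm3 and received either vehicle or the antibody mSTAR1302, injected into the peritoneum once a week for 2 cycles. Tumours were digested, and T cells were enriched with magnetic beads against CD4 and CD8 protein and kept in RPMI medium with serum. Each group was 1 library of 3′ gene expression (10x Genomics), and the labels do not give the number of mice in a library. No difference between the groups has a replicate check, and every interval below covers counting error only, at 95% confidence.

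CD4 and CD8 are the coreceptors that hold a T cell's antigen receptor on major histocompatibility molecules, and most mature T cells with an αβ receptor carry 1 of them. CD4 cells include helper cells, which use CD40 ligand (Cd40lg) to license other immune cells, and regulatory cells, which depend on the transcription factor Foxp3. CD8 cells kill through granzymes such as Gzma and Gzmf. T cells that truly lack both coreceptors exist as γδ cells, invariant cells and a rare αβ population, but a cell with coreceptor protein can also yield no coreceptor UMI when few of its transcripts are captured. The beads bound protein, whereas the rule read transcripts.

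Double-negative cells were shallow. Their median was 3351 UMIs and 1254 genes per cell in the mSTAR1302 library and 4780 UMIs and 1764 genes in the vehicle library. Cells with Cd4 and no Cd8 transcript (the CD4 gate, 934 and 1967 cells) had medians of 6125.5 and 7488 UMIs. Cells with Cd8 and no Cd4 transcript (the CD8 gate, 6257 and 2437 cells) had medians of 6592 and 9847 UMIs. Under 2000 UMIs lay 23.3% and 18.5% of the double-negative cells, against 3.96% and 3.51% of the CD4 gate. Their median mitochondrial share was 3.96% with mSTAR1302 and 2.93% with vehicle, and the CD4 gate had 3.84% and 2.75%.

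Cd4 was a sparse transcript even where it was found. In the CD4 gate the median cell held 2 Cd4 UMIs in both libraries, and 41.4% (mSTAR1302) and 38.7% (vehicle) of its cells held exactly 1. When each cell of the CD4 gate was thinned at random to 2000 UMIs, 43.3% (39.98 to 46.6) and 51.8% (49.5 to 54.1) lost every Cd4 UMI. CD8 gate cells held a median of 8 and 15 UMIs of Cd8a and Cd8b1, and the same thinning left 10.4% (9.65 to 11.2) and 13.8% (12.4 to 15.2) with none. At equal depth a CD4 gate cell was thus left without its coreceptor transcript more often than a CD8 gate cell, in each library.

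**Figure D1:**
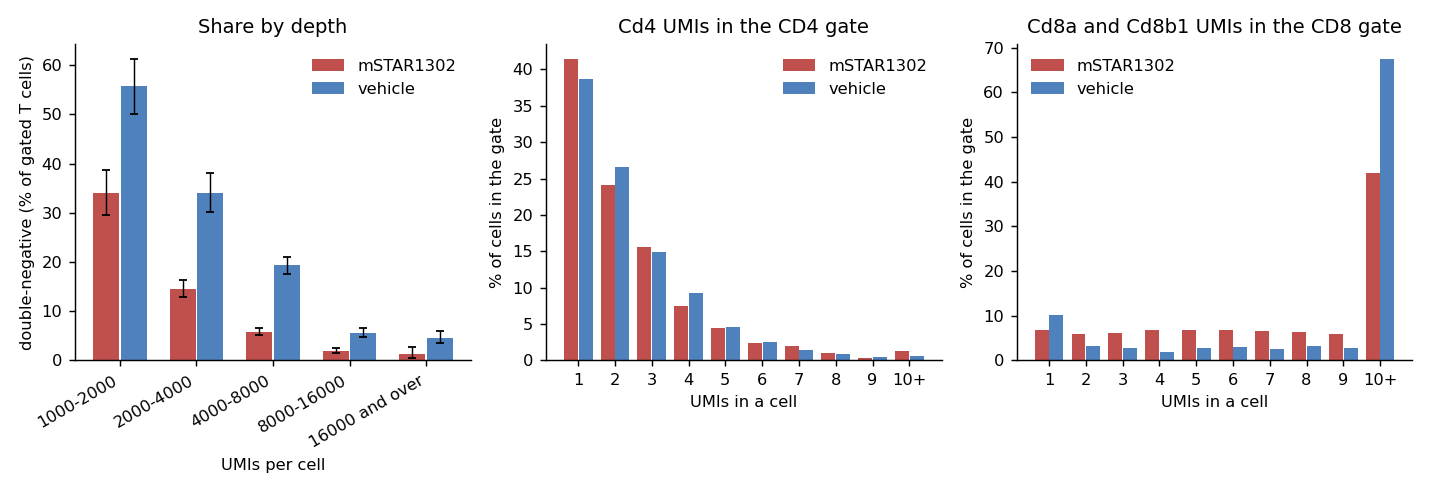
Left, double-negative cells as a percentage of gated T cells in 5 ranges of UMIs per cell (bars, share; lines, 95% exact interval); middle and right, percentage of cells by the number of Cd4 UMIs in the CD4 gate and of Cd8a and Cd8b1 UMIs in the CD8 gate. The share is 34.01% in the shallowest range and 1.34% in the deepest in the mSTAR1302 library, and 55.7% and 4.57% in the vehicle library, and 1 Cd4 UMI is the commonest count in the CD4 gate.

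Double-negative cells made up 7.44% of gated T cells (6.89 to 8.01, 645 of 8672) with mSTAR1302 and 14.6% (13.7 to 15.5, 971 of 6658) with vehicle, a difference of -7.15 percentage points (-8.17 to -6.14). The share also differed by depth within each library. Among cells of 1000 to 2000 UMIs it was 34.01% with mSTAR1302 and 55.7% with vehicle, and among cells of 8000 to 16000 UMIs it was 1.97% and 5.58%. Within each of the 5 depth ranges the vehicle value was the higher, as the plot of share by depth shows.

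The CD8 gate itself took 72.2% of gated T cells with mSTAR1302 and 36.6% with vehicle, so the denominator differed in kind between the libraries. Against the CD4 gate alone the order was the other way. Double-negative cells were 40.8% (38.4 to 43.3) of the double-negative and CD4 gate cells together with mSTAR1302, and 33.0% (31.3 to 34.8) with vehicle. Set within depth ranges, these shares were 80.2% and 72.3% at 1000 to 2000 UMIs, 57.6% and 49.9% at 2000 to 4000, 31.2% and 33.3% at 4000 to 8000, and 16.7% and 17.6% at 8000 to 16000. At 16000 UMIs and over they were 22.2% (8 of 36) and 18.4% (54 of 294). In another version every kept cell was thinned to 1000 UMIs and the whole rule was applied again, its Cd3 limit included. That left 6421 gated T cells with mSTAR1302 and 4809 with vehicle, fewer than before. Of these, 36.9% (35.7 to 38.1) and 51.1% (49.7 to 52.6) were double-negative.

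Receptor transcripts that the rule did not use were found in most members. At 2000 UMIs per cell, a UMI of Trac, the constant region of the α chain, was found in 65.5% and 65.4% of double-negative cells (mSTAR1302 and vehicle, 495 and 791 cells, with 150 and 180 shallower cells left out). Trbc2, a β chain constant region, was found in 76.4% and 67.4%, and the adhesion receptor Cd2 in 69.5% and 68.8%. As a background, macrophage-marker cells (no Cd3 UMI and at least 4 of 9 macrophage markers, 19 and 64 cells with median depths of 12158 and 22586.5 UMIs) had Trac in 5.26% and 1.61% and Trbc2 in 15.8% and 3.23% at the same thinned depth. Before thinning, those macrophage-marker cells were deeper than the double-negative cells. Shallow cells without a Cd3 UMI, given below unthinned, had Trac more often. In the CD4 gate Trac was found in 70.3% and 75.5%.

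Lists of markers of γδ, natural killer and invariant T cells gave mixed values. Trdc, the δ chain constant region, was held to at most 1 UMI by the rule. The 12 γδ T cell markers summed to 15.9 CPM with mSTAR1302 (9 detected) and 8.18 CPM with vehicle (8 detected), against 7.43 and 8.31 CPM in the CD4 gate. Natural killer markers summed to 409.8 CPM (8 of 14 detected) and 767.4 CPM (9 of 14), above the CD4 gate's 79.5 and 177.6 CPM, and 10 of 645 and 33 of 971 cells held at least 3 of them. Without the deep and marker-rich cells described below, those sums were 244.7 and 42.6 CPM, against 73.4 and 44.6 CPM. In each library 1 cell then held at least 3. For the same list the CD8 gate summed to 1262 and 357.5 CPM, and to 1284 and 249.8 CPM without such cells. Near-empty droplets, described below, summed to 1090 and 555.6 CPM. With mSTAR1302 both double-negative sums lay below the CD8 gate and the droplets. With vehicle the sum lay above both with every member kept, and below both without such cells. Genes expressed by invariant T cells summed to 1149 and 1891 CPM, against 1016 and 1778 CPM in the CD4 gate. Of that list, Zbtb16, their defining transcription factor, was found in 0.404% and 0.253% of double-negative cells at 2000 UMIs per cell. Trav11, a variable segment of the receptor, had no UMI, as in the CD4 gate, and 3′ libraries capture few variable segments.

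The members at the edge of the rule carried fewer receptor transcripts. Cells with exactly 2 Cd3 UMIs (90 and 135, median depth 1602.5 and 1699 UMIs) had Trac in 33.3% and 27.4%. Just outside, cells with 1 Cd3 UMI and otherwise the same profile (116 and 188) had Trac in 21.6% and 25.5%. With 0 Cd3 UMIs and otherwise the same profile, 111 and 231 cells had median depths of 1706 and 1688 UMIs. Trac was found, unthinned, in 23.4% and 22.5% of these, Gzma in 26.1% and 0.866%, and Foxp3 in 9.01% and 19.5%. Double-negative cells of 1000 to 2000 UMIs had Foxp3, unthinned, in 8.67% and 35.6%, so the mSTAR1302 value was not above that of cells without Cd3. Cells kept out by a single Cd4 UMI numbered 387 and 761, and those kept out by a single Cd8 UMI 419 and 250; Foxp3 was found, unthinned, in 19.1% and 66.2% of the former and in 8.11% and 47.6% of the latter.

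Some members were not ordinary T cells. At over 20000 UMIs, or with at least 5 of 1000 UMIs from 76 markers of myeloid, stromal, tumour, B, mast, endothelial and platelet cells, stood 19 double-negative cells of the mSTAR1302 library and 64 of the vehicle library. They held 14.4% and 35.4% of all UMIs of the double-negative cells, with medians of 11298 and 30501 UMIs per cell against a median of 2 Cd3 UMIs in each library. At least 3 macrophage markers were found in 9 and 41 of them, at least 3 fibroblast markers in 4 and 20, and Trac in 4 and 20. Doublets were not called or removed. Counts of called genes are therefore given for all members and for trimmed sets without such cells, which kept 626 and 907 double-negative cells. This limit was chosen after the data had been seen. Levels and ratios of most single genes are given for the trimmed sets only. Trimming also lowers the UMI totals that CPM is scaled by, more so with vehicle.

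Lineage transcripts differed between the libraries in the double-negative cells. At 2000 UMIs per cell Foxp3 was found in 16.6% (13.4 to 20.1, 82 of 495) with mSTAR1302 and in 38.3% (34.9 to 41.8, 303 of 791) with vehicle, a difference of -21.7 points (-26.3 to -16.9). In the CD4 gate the shares were 8.25% and 42.6%, in the CD8 gate 1.10% and 6.23%, and no macrophage-marker cell had a Foxp3 UMI at that depth (0 of 19 and 0 of 62). Double-negative cells were therefore nearer to the CD4 gate than to the CD8 gate in each library. In the mSTAR1302 library their thinned Foxp3 share was above that of the CD4 gate, with intervals that do not overlap. Unthinned, those mSTAR1302 shares were 19.1% (16.1 to 22.3) and 15.5% (13.3 to 18.0), with intervals that overlap. Near-empty droplets held Foxp3 at 28.7 CPM (2 UMIs) with mSTAR1302 and 109 CPM (11 UMIs) with vehicle.

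Cd40lg had the opposite order. It was found in 19.0% (15.6 to 22.7, 94 of 495) of double-negative cells with mSTAR1302 and in 4.30% (2.99 to 5.95, 34 of 791) with vehicle, a difference of 14.7 points (11.1 to 18.6). The CD4 gate had 29.2% and 5.90%, and the CD8 gate 3.79% and 2.94%. None of the macrophage-marker cells held a Cd40lg UMI, even unthinned. In the mSTAR1302 library the double-negative share lay between the gates, and in the vehicle library its interval overlapped those of both gates.

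Gzma, a granule protease, was found in 15.2% (12.1 to 18.6, 75 of 495) of double-negative cells with mSTAR1302 and in 0 of 791 with vehicle, which allows a share of cells with a UMI of up to 0.379% in that draw. Other depths gave 4 of 971 vehicle cells (0.412%) at 1000 UMIs and 5 of 697 (0.717%) at 3000. The CD4 gate had 9.59% and 0.896%, and the CD8 gate 49.0% and 4.21%. Free Gzma RNA was present in the mSTAR1302 library: near-empty droplets of 20 to 100 UMIs held it at 861 CPM (counts per 1000000 UMIs), and 2 of 19 macrophage-marker cells had a UMI at 2000 UMIs per cell, 10.53% (1.30 to 33.1). The double-negative share cannot be told apart from that background by its interval. Unthinned, 161 double-negative cells of that library had Gzma, 61.5% of them with exactly 1 UMI, and 20 cells had at least 5, with a highest count of 47. The 10 cells with the most held 46.1% of the Gzma UMIs. By contrast the 4064 Gzma cells of the CD8 gate held a median of 5 UMIs.

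Gzmf, a granzyme of strongly stimulated CD8 cells, was rare. Its share was 2.63% (1.41 to 4.45) with mSTAR1302 and 2.15% (1.26 to 3.42) with vehicle, a difference of 0.477 points (-1.19 to 2.46). The direction was the opposite unthinned, at -0.91 points (-3.04 to 1.39). Macrophage-marker cells had it in 0 of 19 with mSTAR1302, which allows a share of up to 15.8%, and in 3.23% (0.393 to 11.2) with vehicle, so neither double-negative share can be told apart from its background. Of the 30 and 54 double-negative cells with Gzmf at full depth, 24 and 50 had a single UMI. One mSTAR1302 cell reached 11.

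Unthinned, the double-negative shares with mSTAR1302 and vehicle were 19.1% and 54.6% for Foxp3, 23.9% and 8.14% for Cd40lg, 24.96% and 1.03% for Gzma, and 4.65% and 5.56% for Gzmf. In the deeper macrophage-marker cells they were 0% and 4.69%, 0% and 0%, 31.6% and 1.56%, and 5.26% and 7.81%. Of the 4, Foxp3 and Cd40lg had higher values than the macrophage-marker cells in both libraries at both depths, although 0 of 62 such cells in the thinned vehicle library allows a share of up to 4.84%, which is above the 4.30% for Cd40lg.

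**Figure D2:**
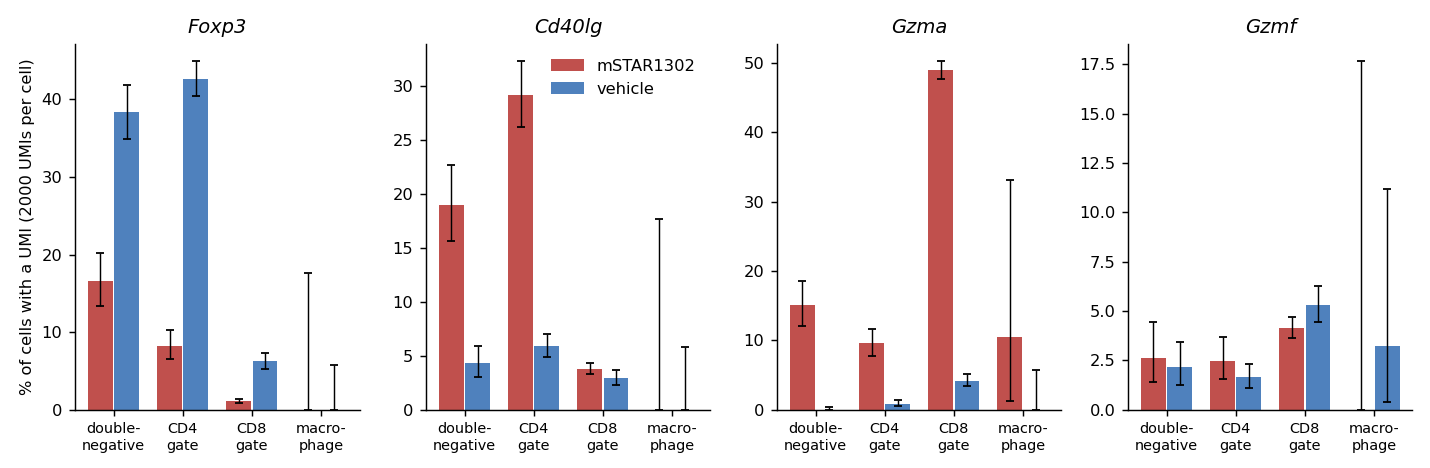
Percentage of cells with a UMI of Foxp3, Cd40lg, Gzma or Gzmf after thinning to 2000 UMIs per cell, in double-negative cells, the CD4 gate, the CD8 gate and macrophage-marker cells (bars, share; lines, 95% exact interval; the y axes differ). For Foxp3 and Cd40lg the double-negative bars follow the CD4 gate, and for Gzma the CD8 gate of the mSTAR1302 library stands at 49.0%, above 15.2% in the double-negative cells.

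In GRCm38 coordinates, Foxp3 lies on chromosome X at 7573644 to 7595245 (plus strand) and Cd40lg on chromosome X at 57212143 to 57224042 (plus strand). Gzma lies on chromosome 13 at 113093825 to 113100981 (minus strand) and Gzmf on chromosome 14 at 56205263 to 56211417 (minus strand). All are protein-coding genes.

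Split by these 4 transcripts at full depth, the double-negative cells fell into unequal subsets. With mSTAR1302, 123 cells (19.1%) had Foxp3, 147 (22.8%) had Cd40lg without Foxp3, 120 (18.6%) had Gzma or Gzmf without both, and 255 (39.5%) had none of the 4. With vehicle the subsets were 530 (54.6%), 55 (5.66%), 31 (3.19%) and 355 (36.6%). The cells with none were shallower than the Foxp3 cells, with medians of 2756 against 4394 UMIs (mSTAR1302) and 3728 against 5235.5 (vehicle). The granzyme subset of the mSTAR1302 library was the shallowest, at 2566.5 UMIs.

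The Foxp3 subset carried other regulatory T cell transcripts, which the rule did not use. At 2000 UMIs per cell Ikzf2, the transcription factor Helios, was found in 83.6% (mSTAR1302) and 88.4% (vehicle) of Foxp3 cells, against 20.0% and 74.2% of the whole CD4 gate and 8.88% and 19.7% of the CD8 gate. Ctla4, an inhibitory receptor, was found in 72.7% and 80.7%, Tnfrsf4 (OX40) in 76.4% and 73.2%, and the interleukin-2 receptor chain Il2ra in 70.9% and 78.3%. Gzmb, which regulatory cells in tumours can also express, was found in 76.4% and 66.5%. Tcf7, a factor of resting and stem-like cells, was found in 2.73% and 1.93%. Unthinned, 15.5% and 68.9% of the whole CD4 gate had Foxp3. Its Foxp3 cells were not profiled apart, so the 2 kinds of Foxp3 cell were not compared.

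In the Cd40lg subset these transcripts were less frequent but present. Ikzf2 was found in 4.41% and 13.7% of its cells, Il2ra in 17.6% and 11.8%, Ctla4 in 22.1% and 39.2%, and Tnfrsf4 in 27.9% and 39.2%. With mSTAR1302, 55.9% had the granule protein Nkg7, 47.8% the chemokine receptor Cxcr6 and 34.6% Ifng, close to the whole CD4 gate of that library (53.1%, 41.4% and 27.5%) and, for Nkg7, below its CD8 gate (88.3%). With vehicle, on 51 cells, Nkg7 was found in 23.5%, Cxcr6 in 21.6% and Ifng in 23.5%.

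The granzyme subset of the mSTAR1302 library (78 cells at 2000 UMIs or more) was the nearest of the 4 to its CD8 gate. Ccl5, a chemokine of effector cells, was found in 65.4% of it against 70.7% of the CD8 gate and 21.2% of the CD4 gate. Nkg7 was found in 67.9%, against 88.3% and 53.1%, and Klrd1, the CD94 receptor, in 26.9%, against 56.1% and 18.4%. Lyz2, a myeloid gene, was found in 10.3% of it, against 1.71% of the CD8 gate. In the vehicle library the subset had 24 cells at this depth, with Nkg7 in 12.5% and Ikzf2 in 54.2%.

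Cells with none of the 4 transcripts were mixed. In the vehicle library 43.2% of them had Ikzf2, between the CD8 gate (19.7%) and the CD4 gate (74.2%), and 15.6% had Nkg7, against 81.1% of the CD8 gate. In the mSTAR1302 library 43.3% had Nkg7 and 15.8% Ikzf2, near the CD4 gate's 53.1% and 20.0%. Tcf7 was found in 23.4% and 19.2% of them, against 9.59% and 8.01% of the CD4 gate. Of the cells trimmed from the vehicle library, 43 of 64 were in this subset.

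**Figure D3:**
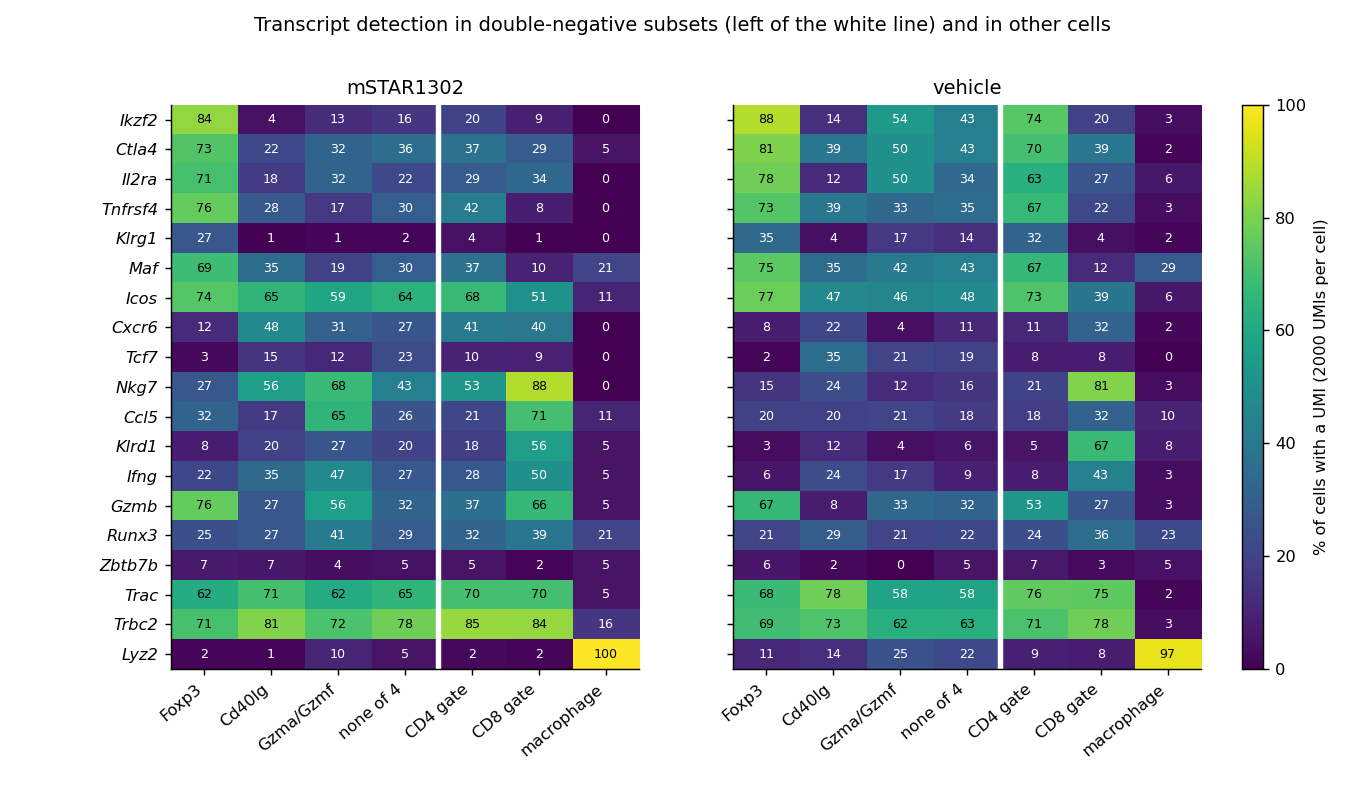
Percentage of cells with a UMI of each transcript (rows) after thinning to 2000 UMIs per cell, in the 4 double-negative subsets, defined in order by Foxp3, Cd40lg without Foxp3, Gzma or Gzmf without both, and none, and in the CD4 gate, the CD8 gate and macrophage-marker cells, for each library. Ikzf2 stands at 83.6% and 88.4% in the Foxp3 columns, and Ccl5 at 65.4% in the granzyme column of the mSTAR1302 library.

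By count of called genes, the trimmed double-negative cells were nearer to the trimmed CD4 gate than to the trimmed CD8 gate in each library. The trimming removed cells rich in markers of other cell types, so these counts depend on that cut. For each set of cells the UMIs of a gene were added up, and a gene was called at a ratio of 2-fold or more with at least 20 CPM in either set; with 1 library a group this is a size rule, not a test. Over the trimmed CD4 gate, 18 of 5133 genes (0.351%) were higher and 14 (0.273%) lower in the mSTAR1302 library, and 4 of 5694 (0.0702%) higher and 8 (0.14%) lower in the vehicle library. Over the trimmed CD8 gate, 136 of 5201 (2.61%) were higher and 77 (1.48%) lower with mSTAR1302, and 359 of 5783 (6.21%) higher and 217 (3.75%) lower with vehicle. Cd4, Cd8a and Cd8b1 are among these by the rule.

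With every member kept, deep and marker-rich cells included, the counts differed. Over the CD4 gate 172 of 5297 genes (3.25%) were then higher and 18 (0.34%) lower with mSTAR1302, and 360 of 6064 (5.94%) higher and 10 (0.165%) lower with vehicle. Of 5170 genes at the floor in both libraries, 137 were higher in both. They were led by Wfdc2, Cald1, Col1a2 (a collagen chain), Gja1, Fbln2, Krt8 (a keratin), Aebp1 and Cp, genes of epithelial and stromal cells. In the trimmed sets 1 of 5012 such genes was higher in both. Over the CD8 gate 284 of 5362 genes (5.3%) were higher and 77 (1.44%) lower with mSTAR1302, and 537 of 6050 (8.88%) higher and 190 (3.14%) lower with vehicle.

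The gene that was higher than the CD4 gate in both trimmed comparisons was Xcl1, a ligand for dendritic cells that carry the receptor XCR1. Its level was 32.3 CPM against 11.8 CPM with mSTAR1302 and 55.5 CPM against 19.5 CPM with vehicle. Lgals7, a galectin, was lower in both, at 128 against 319.6 CPM (mSTAR1302) and 18.1 against 48.6 CPM (vehicle). Csf2, which encodes the cytokine GM-CSF, was lower in both, at 17.8 against 45.6 CPM and 8.52 against 25.3 CPM. The third gene lower in both was Cd4.

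Over the trimmed CD8 gate, of 5095 genes at the floor in both libraries, 98 were higher and 58 lower in both, and the leading ones sorted by lineage. Foxp3 stood at 123.6 against 7.996 CPM with mSTAR1302 and 336 against 38.95 CPM with vehicle. Ikzf2 stood at 435.3 against 62.1 CPM and 1423 against 211 CPM, and Izumo1r, the folate receptor 4 of regulatory and follicular helper cells, at 132.8 against 8.04 CPM and 221.1 against 24.5 CPM. Rln3, Itgb8 (a subunit of the integrin that activates TGF-β), Trat1, Klrg1 and Itgae were the other leading genes on the higher side, with log2 ratios of 2.76 to 4.16 over the libraries.

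The lower side held genes of killer cells. Gzme stood at 3.63 against 104.5 CPM with mSTAR1302 and 5.03 against 151.7 CPM with vehicle, and Prf1, the pore-forming perforin, at 24.2 against 147.3 CPM and 13.98 against 210.6 CPM. Gzma was lower than in the CD8 gate in both, at 204.7 against 1213 CPM and 2.62 against 76.2 CPM. Cd160, Gzmd, Gzmf, Serpinb9b and Nrgn completed the leading group.

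Between libraries, the double-negative cells had more genes lower than higher with mSTAR1302. In all members 81 of 5918 genes (1.37%) were higher and 360 (6.08%) lower, and in the trimmed sets 68 of 5631 (1.21%) were higher and 238 (4.23%) lower. Of these 52 and 95 were called in both. The median log2 ratio over all members was -0.21; with the libraries centred on that median the counts were 117 higher and 228 lower, so the higher share of calls went from 18.4% to 33.9%. Ratios below are scaled by total UMIs and are read against that median. In such summed counts, fewer cells of a type and fewer transcripts per cell cannot be told apart.

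The 12 genes furthest down in all members were Ctsk, Bgn, Mgp, Dcn, Lyz1, Mmp9, Ccl7, Mfap5, Gpx3, Retnla, Rarres2 and Lbp, genes of stromal and myeloid cells. Ctsk, the protease cathepsin K, had 1 UMI (0.345 CPM) with mSTAR1302 and 1376 (194.1 CPM) with vehicle, and Mgp 1 and 511. Bgn, a matrix proteoglycan, had 0 and 424 UMIs, at least 57.7-fold lower. Over all members the macrophage and monocyte list (14 of 14 markers detected in both libraries) summed to 1326 CPM with mSTAR1302 and 4416 CPM with vehicle, and the fibroblast list (9 and 10 of 10 detected) to 327 and 1583 CPM. In the trimmed sets these sums were 147 and 345 CPM, and 12.5 and 54.2 CPM. Their part in the genes that remained lower was not tested.

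Gzma led the higher genes. In the trimmed sets it had 507 UMIs (204.7 CPM) with mSTAR1302 and 12 UMIs (2.62 CPM) with vehicle, a ratio of 78.1 (44.3 to 152), with free RNA at 861 and 29.8 CPM. The CD4 gate had 62.8 and 4.37 CPM and the CD8 gate 1213 and 76.2 CPM. Gzma was above its vehicle level in all 3 sets.

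Several of the other higher genes were shared with the CD4 gate and not seen in the CD8 gate. Ifitm1, an interferon-induced membrane protein, stood at 669.9 and 41.1 CPM in the trimmed double-negative cells, a ratio of 16.3 (14.0 to 19.1), and its log2 ratio was 3.99 there, 3.8 in the CD4 gate and -0.06 in the CD8 gate. Its free RNA stood at 961 and 377 CPM. Il12rb2, the signalling chain of the interleukin-12 receptor, had 105 and 19 UMIs (42.4 and 4.15 CPM), with log2 ratios of 3.07, 2.70 and 0.36. Lgals7 followed the same order, at 2.75, 2.69 and -0.87, and Klrc1 (NKG2A) had 2.19, 1.57 and -0.10. Ifitm2 had 2.70, 2.99 and 0.40.

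The remaining higher genes were higher in every set. Il13, a type 2 cytokine, had 77 and 17 UMIs (31.1 and 3.71 CPM), with log2 ratios of 2.77, 2.92 and 2.45 in the double-negative cells, the CD4 gate and the CD8 gate. Ly6c2, a surface protein of effector and memory cells, stood at 145.8 and 18.4 CPM (2.92, 2.33 and 1.71), and Ly6c1 at 208 and 36.7 CPM (2.47, 2.04 and 2.05). Ifitm3, Slamf7 and Plac8 completed the 12, with log2 ratios of 2.23 to 2.44 in the double-negative cells. The double-negative and gate comparisons come from the same pair of libraries, so their values stand side by side and are not independent.

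The lower genes of the trimmed set included genes of regulatory cells and a few of myeloid cells. Itgb8 had 56 and 578 UMIs (22.6 and 126.3 CPM), 5.59-fold lower (4.24 to 7.49). Penk, which encodes the opioid precursor proenkephalin and is made by regulatory T cells of tissues, stood at 88.4 and 477.4 CPM, 5.40-fold lower (4.70 to 6.23), with log2 ratios of -2.42, -2.07 and -2.78 in the double-negative cells, the CD4 gate and the CD8 gate. Pcsk1, a prohormone convertase, had 7 and 157 UMIs, Laptm4b 4 and 98, and Ltf, lactoferrin, 33 and 433. Wfdc17 and Apoe, both of macrophages, had 3 and 94 UMIs, a ratio of 16.96 (5.63 to 83.7), and 6 and 114 UMIs. Il1rn, Ier5l, Dapl1, Rapsn and Camk2n1 completed the group, with log2 ratios of -2.39 to -2.27. All 12 were also below their vehicle level in both gates.

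The ratios were also read in cells with and without Foxp3. Among trimmed double-negative cells with a Foxp3 UMI, Foxp3 itself stood at 481.2 CPM with mSTAR1302 and 534.5 CPM with vehicle, a log2 ratio of -0.15. That level is partly set by the split, which requires at least 1 Foxp3 UMI, so it does not measure a difference per cell. Before trimming, 38.2% and 30.6% of the Foxp3 cells held exactly 1. Penk had log2 ratios of -1.37 in cells with Foxp3 and -2.49 in cells without it, and Itgb8 had -1.59 and -2.34. Ifitm1 stood at 141.5 and 32.3 CPM in cells with Foxp3 and at 852.4 and 55.9 CPM in cells without it. Each of these 3 genes therefore differed more than 2-fold between libraries on both sides of the split. A cell without a Foxp3 UMI can still be a Foxp3 cell at this depth.

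**Figure D4:**
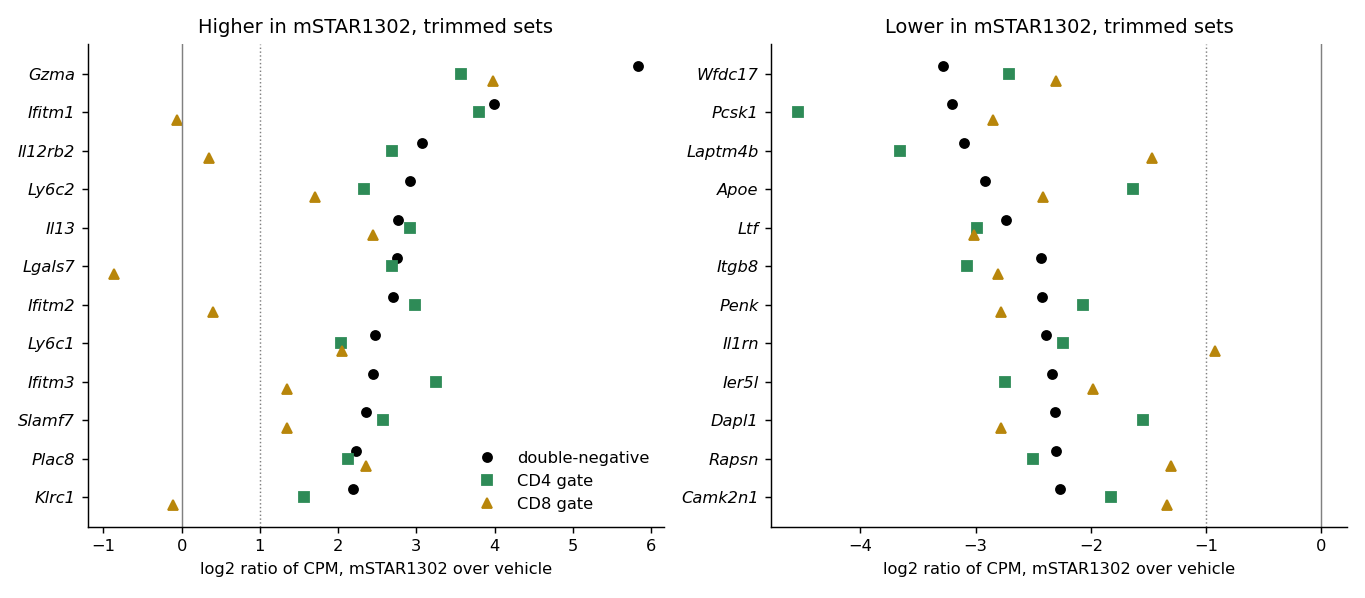
log2 ratio of CPM, mSTAR1302 over vehicle, for the 12 genes highest and the 12 lowest in the trimmed double-negative cells (circles), with the same genes in the trimmed CD4 gate (squares) and CD8 gate (triangles); dotted lines mark 2-fold, and each point is 1 library against 1. For Ifitm1, Il12rb2, Lgals7, Ifitm2 and Klrc1 the CD8 gate lies between -0.87 and 0.40 and the other 2 sets above 1.

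Gene lists were read at a floor of 5 CPM, where 134 of 9885 genes (1.36%) were higher and 962 (9.73%) lower in all members, and 143 of 9170 (1.56%) higher and 677 (7.38%) lower in the trimmed sets, with medians over all genes of -0.25 and -0.26. Regulatory T cell genes were lower. In all members 7 of 25 were at least 2-fold lower and none higher (median -0.67), and in the trimmed sets 14 of 25 were lower and none higher (median -1.08). Klrg1, a receptor of effector regulatory cells, stood at 55.7 and 218.3 CPM in the trimmed sets (log2 ratio -1.95), Itgae (CD103) at 88.8 and 331.2 CPM (-1.89), the inhibitory cytokine gene Il10 at 16.6 and 62.3 CPM (-1.85) and Ikzf2 at 435.3 and 1423 CPM (-1.71). Foxp3 itself stood at 123.6 and 336 CPM in the trimmed sets, 2.72-fold lower (2.40 to 3.08). In all members it stood at 106.4 and 225.9 CPM, a smaller fold.

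CD8 lineage genes were higher as a list, although the cells were chosen to lack Cd8a and Cd8b1. In all members 11 of 16 measured genes were at least 2-fold higher and none lower (median 1.82), and in the trimmed sets 11 of 17 were higher and none lower (median 1.52). Nkg7 stood at 503.5 and 131.8 CPM in the trimmed sets (log2 ratio 1.93), Klrk1, the activating receptor NKG2D, at 110.2 and 27.5 CPM (1.96) and Cd7 at 52.1 and 12.02 CPM (2.03). Eomes, a transcription factor of memory and killer cells, had 13 and 2 UMIs. The trimmed CD4 gate had 9 of 15 genes of the list higher (median 1.54) and the trimmed CD8 gate 3 of 18 higher and 3 lower (median -0.21). Over all genes at a floor of 20 CPM, the trimmed CD4 gate had 92 of 5629 higher and 320 lower. The trimmed CD8 gate had 56 of 5379 higher and 196 lower. Free RNA held Nkg7 at 1349 and 903 CPM.

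Granzymes and lytic granule genes were higher in 8 of 13 and lower in 1 in all members (median 1.21), and higher in 7 of 14 and lower in none in the trimmed sets (median 0.88). Beside Gzma and Nkg7, Gzmk had 44 and 19 UMIs (log2 ratio 1.87 in the trimmed sets), Fasl, the death ligand, 132 and 87 UMIs (1.44), and the granzyme inhibitors Serpinb6b and Serpinb9 had ratios of 1.84 and 1.62. Gzmf had 42 and 51 UMIs, 1.52-fold (0.987 to 2.34).

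Cytokine and chemokine genes were divided. In all members 8 of 21 were higher and 2 lower (median 0.34), and in the trimmed sets 7 were higher and 4 lower (median 0.55). Ifng stood at 496.3 and 135.7 CPM in the trimmed sets (1.86), Il3 had 44 and 5 UMIs (3.16) and Ccl1 243 and 122 UMIs (1.84), while Penk and Il10 were lower. Helper genes had 4 of 14 higher and none lower in all members (median 0.29) and 3 of 15 higher and 3 lower in the trimmed sets (median -0.13). Cd40lg stood at 127.6 and 33.4 CPM in the trimmed sets, 3.82-fold higher (3.14 to 4.66), and Maf, a factor of regulatory and helper cells, at 370.7 and 864.6 CPM (-1.22). In all members Cd40lg stood at 112.3 and 21.6 CPM, a larger fold.

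Inhibitory receptor and exhaustion genes were lower in 3 of 17 in all members (median -0.36) and in 6 of 17 in the trimmed sets (median -0.63), with none higher in either. Ctla4 stood at 500.3 and 1060 CPM in the trimmed sets (-1.08) and Cd200 at 30.7 and 84.6 CPM (-1.43). Of those 6, Ikzf2, Ctla4 and Tigit are also in the regulatory T cell list. Naive and memory genes had 3 of 18 higher and 2 lower in all members (median 0.09) and 3 higher and 3 lower in the trimmed sets (median -0.26), with Ly6c2, Ly6c1 and Bcl2 on the higher side.

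Other lists had few genes past 2-fold, or depended on which cells were kept. Interferon-response genes had 3 of 32 higher and 2 lower in all members (median 0.01) and none of 30 higher and 5 lower in the trimmed sets (median -0.38). Proliferation genes had none of 30 higher and 1 lower in all members (median -0.55), and none in either direction in the trimmed sets (median -0.26); without Foxp3 cells 11 of 30 were lower (median -0.85), and 3 of 29 when also trimmed. The T cell receptor complex and proximal signalling list had none of 20 past 2-fold in either set of cells (medians 0.36 and 0.04). Without Foxp3 cells 5 of 20 were higher (median 0.83), with none when also trimmed. Over all genes at a floor of 20 CPM, cells without Foxp3 had 122 of 6074 higher and 712 lower. When also trimmed they had 73 of 5543 higher and 283 lower. The list counts of cells without Foxp3 are read beside these. Coreceptor lineage regulators, which include Zbtb7b and Runx3, had none of 18 higher and 1 lower in all members, and none higher and 2 lower, Myb and Patz1, in the trimmed sets. Runx3, which directs CD8 lineage choice, stood at 190.6 and 126.9 CPM (0.58), and Zbtb7b, which directs CD4 lineage choice, was found at 28.3 and 31.0 CPM (-0.13).

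**Figure D5:**
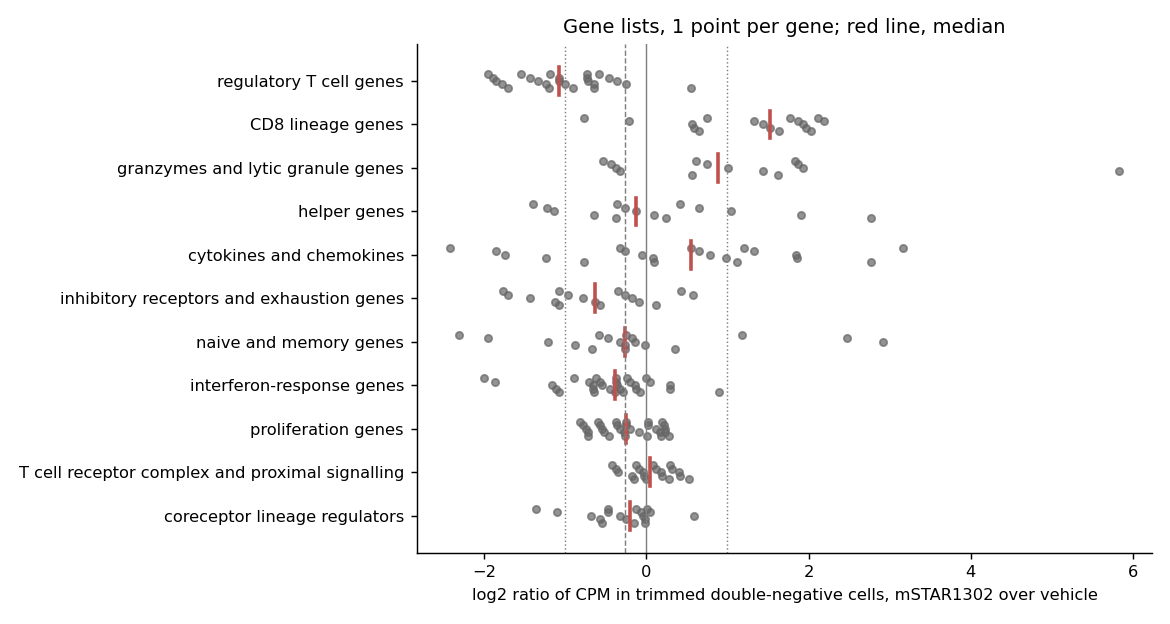
log2 ratio of CPM in trimmed double-negative cells, mSTAR1302 over vehicle, for the members of 11 gene lists with at least 5 CPM in either library (points, genes; red lines, list medians; dashed line, median of all genes at that floor; dotted lines, 2-fold). Regulatory T cell genes centre on -1.08 and CD8 lineage genes on 1.52, against -0.26 for all genes.

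By general knowledge of the agent, not by the labels, mSTAR1302 joins an antibody to T cell receptor β chains of the mouse Vβ13 family with interleukin-2, and the choice of Trbv13-2 and Trbv13-3 below rests on that. Trbv13-2 lies on chromosome 6 at 41121396 to 41121832 and Trbv13-3 at 41130147 to 41130585 (GRCm38, plus strand). The 2 segments share 308 of 340 transcript bases (90.6%), so reads near their common stretches could be assigned to either. The last 100 bases of each, which run into the CDR3, show how alike they are; capitals mark the 11 bases that differ between them (GENCODE M21 transcripts, 5′ to 3′).
Trbv13-2, chr6:41121733-41121832: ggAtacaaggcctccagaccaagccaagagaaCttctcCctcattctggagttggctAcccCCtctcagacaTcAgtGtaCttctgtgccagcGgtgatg
Trbv13-3, chr6:41130486-41130585: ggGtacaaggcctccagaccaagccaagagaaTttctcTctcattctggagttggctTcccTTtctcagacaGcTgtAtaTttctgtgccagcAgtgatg

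Trbv UMIs were few, because the libraries read the 3′ end of transcripts: 101 of 645 double-negative cells (15.7%) had one with mSTAR1302 and 125 of 971 (12.9%) with vehicle. Trbv13-2 and Trbv13-3 together took 25 of 117 Trbv UMIs with mSTAR1302, 21.4% (14.3 to 29.9), and 13 of 159 with vehicle, 8.18% (4.43 to 13.6), a difference of 13.2 percentage points (4.83 to 22.1). Trbv13-3 took 16 and 4 UMIs, and Trbv13-2 took 9 and 9. Trbv13-1, the third member of the family, took 4 (3.42%) and 7 (4.40%), and with it the difference was 12.2 points (3.001 to 21.8). In the CD4 gate the pair took 13.2% and 11.5%, and in the CD8 gate 43.7% (41.6 to 45.8) and 15.2% (12.9 to 17.7). The mSTAR1302 value of the double-negative cells lay below that of the CD8 gate, and its interval overlapped that of the CD4 gate (9.63 to 17.6).

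Both parts of the double-negative cells had this order between libraries. Cells without a Foxp3 UMI had the pair in 18 of 89 Trbv UMIs (20.2%) with mSTAR1302 and 5 of 64 (7.81%) with vehicle, and cells with Foxp3 in 7 of 28 (25%) and 8 of 95 (8.42%). With Trbv13-1 included, the difference in cells without Foxp3 was 11.5 points (-0.891 to 22.7), an interval that includes 0. Trbv1 (17 and 31 UMIs), Trbv19 (15 and 29), Trbv12-2 (12 and 8) and Trbv2 (9 and 21) were other common segments. Trbv1, Trbv19 and Trbv2 took lower shares with mSTAR1302. Trbv12-2 took 10.3% and 5.03%, a difference of 5.22 points (-1.05 to 12.5). In the CD8 gate Trbv12-2 took 18.3% and 9.04%, a difference of 9.25 points (6.63 to 11.7). There Trbv13-2 alone differed by 5.05 points and Trbv13-3 by 23.5, so a higher share was not particular to the pair. Counted by cells, 23 of the 101 cells with any Trbv UMI held Trbv13-2 or Trbv13-3 with mSTAR1302 (22.8%, 15.02 to 32.2) and 13 of 125 with vehicle (10.4%, 5.65 to 17.1).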

How the data were processed

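The deposited matrices hold raw UMI counts, whole numbers, for 32285 genes. The authors aligned to mm10, per the submitters' processing notes, which list Cell Ranger 6.0.1, while the file headers give Cell Ranger 4. Library totals were 96486469 (mSTAR1302) and 110026997 UMIs (vehicle), with 9155 and 7615 kept cells. Both libraries shared 17 kept barcodes, found on 1 and 3 double-negative cells. Counts were summed per gate and scaled to CPM, and log2 ratios used a pseudocount of 1 CPM. Intervals are Clopper-Pearson for shares, Newcombe for differences and exact conditional binomial for ratios. Thinning drew UMIs without replacement. Named genes were the 12 furthest each way at 20 CPM, the 8 furthest each way against a gate in both libraries, and up to 6 per list, without receptor segments, mitochondrial, predicted and rule genes; the rule was repeated on the trimmed sets. Transcripts of the subsets, and Runx3, Zbtb7b, Ctla4, Nkg7 and a few others outside it, were chosen with their values known. Members and lists were chosen with earlier results of these data known. Gene models were GENCODE M21 (32158 of 32285 genes matched). Scripts were tested on simulated data and ran on Python 3.11.15, NumPy 2.4.6 and SciPy 1.17.1. One gene is not reported here.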

Additional observations from a re-analysis of the deposited data

Results flagged for a closer look

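Of 155 genes compared, 1, Ccl1 (a chemokine of activated T cells), was at least 2-fold apart between libraries in opposite directions in the double-negative cells and the CD8 gate. In the trimmed double-negative cells it stood at 98.1 CPM with mSTAR1302 and 26.7 CPM with vehicle, a log2 ratio of 1.84, and in the CD4 gate the ratio was 2.54. In the trimmed CD8 gate it stood at 115 and 442.5 CPM, a log2 ratio of -1.93. The difference between the sets was not tested, since each group is 1 library.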

How the results depend on the processing

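Alternatives changed 1 choice at a time; the one change of direction seen among the differences in share was for Gzmf, 0.477 points at 2000 UMIs per cell and -0.91 unthinned, both with intervals that include 0. At 1000 UMIs it was 1.45 (0.174 to 3.03). Thinning every cell to 1000 UMIs before gating moved the difference in double-negative share from -7.15 to -14.3 points. The Foxp3 difference, -21.7 points at 2000 UMIs per cell, was -35.5 unthinned, -15.2 at 1000 and -27.1 at 3000 UMIs; that for Cd40lg, 14.7, was 7.61 at 1000 and 19.6 at 3000; that for Gzma, 15.2, was 23.9 unthinned. Genes higher with mSTAR1302, 81, numbered 50 at a floor of 50 CPM, 250 with no floor and 122 without Foxp3 cells. Genes lower, 360, numbered 238 in trimmed cells, 161 at 50 CPM, 1595 with no floor, 228 with median scaling and 712 without Foxp3 cells. Genes higher in both libraries over the CD4 gate, 137, were 27 with at least 3 Cd3 UMIs and 1 in trimmed cells, and over the CD8 gate, 219, were 107 and 98. Regulatory genes called lower, 7, were 14 in trimmed cells. The other 81 such values stayed within their limits, while 139 of 473 log2 ratios of named genes moved beyond theirs, and the trimming, the removal of shared barcodes and the cell filters in the gate comparisons were chosen after the data had been seen.

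No paired analysis was possible because each group is 1 library. Depth limits these cells: an absent coreceptor UMI is not absent protein, Trbv UMIs were found in 15.7% and 12.9% of them, and Gzma and Gzmf shares lie near the free RNA background. The Foxp3 share of mSTAR1302 members at 1000 to 2000 UMIs, 8.67%, was also near that of cells without a Cd3 UMI, 9.01%.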

Other observations

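Immediate early and dissociation genes had 2 of 16 higher with mSTAR1302 and none lower, both in all members and in the trimmed sets (medians 0.01 and -0.02). Over all genes at the floor of 5 CPM, 1.36% were at least 2-fold higher and 9.73% lower in all members. In the trimmed sets these shares were 1.56% and 7.38%. The list counts in this section are small and are read beside those shares. The 2 higher genes are named next. The 2 were the heat shock genes Hspa1b, at 231 and 99.9 CPM in the trimmed sets (log2 ratio 1.20), and Hspa1a, at 145 and 68.8 CPM (1.06). Both were also higher in the trimmed CD4 gate, at 1.84 and 1.70.

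Glycolysis genes had 1 of 15 higher and none lower in both versions. The gene was Hk2, a hexokinase, at 62.2 and 20.98 CPM in the trimmed sets (log2 ratio 1.52), with 0.69 in the CD4 gate and 0.26 in the CD8 gate. Homing and residence genes had 2 of 18 higher, Cxcr6 (1.95) and the integrin Itgb1 (1.44), and 3 lower, among them Itgae and the chemokine receptor Ccr8 (-1.19), in the trimmed sets. In all members 1 gene of that list was higher and 1 lower.

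Genes of interleukin-2 and STAT5 signalling had 2 of 22 higher and 1 lower in both versions (medians -0.16 in all members and -0.30 in the trimmed sets). In the trimmed sets these were the survival factor Bcl2 (1.18) and the cytokine Lta (1.12) on the higher side and Tnfrsf9, the costimulatory receptor 4-1BB, on the lower.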
